A study of Mus musculus with 9 samples.

Results

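The 10 named endothelial genes are described here in cultured mouse lung cells that carry or lack Nrf2, the transcription factor encoded by Nfe2l2. They are Pecam1, Cdh5, Kdr, Emcn, Tek, Tie1, Vwf, Eng, Thbd and Cavin2, chosen by name as genes that mark blood vessel lining. They make up 10 of the 18193 genes with a single symbol in the array's annotation, and all 14 probe sets carrying 1 of those 10 symbols were used, out of 45037. The 9 arrays fall into 3 groups of 3. KO + GSH is Nrf2-/- cells supplemented with GSH, KO is Nrf2-/- cells without it and WT is Nrf2+/+ cells. Every sample is labelled as type II lung cells of female ICR10 mice aged 2 months, cultured for 5 days with keratinocyte growth factor on a fibronectin and collagen coat. No source used here gives the dose or timing of GSH, and the treatment field of the GSH arrays too reads as untreated. The label gives Nrf2-/- for the whole mouse, and no source used here says how the allele was made. Each array is labelled n = 1 and nothing says that the 3 cultures of a group came from separate animals, so the p-values below measure the spread between these cultures, which may be technical.

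Endothelial cells line blood and lymph vessels, and the lung alveolus is wrapped in a dense capillary bed. Their identity rests on junction proteins such as VE-cadherin, on receptors for VEGF and the angiopoietins, and on a surface that keeps blood from clotting. NRF2 binds antioxidant response elements in its target genes together with small MAF proteins, and GSH is glutathione, the main thiol antioxidant of cells. Several of the genes are also used outside endothelium. Thbd is made by mesothelium, keratinocytes and monocytes, Pecam1 by platelets and leukocytes, Eng by mesenchymal cells and activated macrophages, and Cavin2 by other cells rich in caveolae.

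The labels were checked on genes outside the 10. Nfe2l2 (1416543_at; GRCm38.p6, chr2:75675513-75704663) read 33.3 to 46.2 in KO + GSH, 28.7 to 77.4 in KO and 3879 to 4173 in WT, in the arbitrary signal units of the deposited values. A second Nfe2l2 probe set, 1457117_at, ran otherwise, with 121 to 189 in KO + GSH, 34.4 to 68.6 in KO and 35.8 to 51.6 in WT, and no source used here says which part of the gene is deleted. Sftpc, which defines type II cells, averaged 108 in KO + GSH, 89.1 in KO and 37.3 in WT at 1418639_at, and lay below the control level on all 3 WT arrays. The control level is the 95th percentile of 27 bacterial and absent-spike probe sets on each array and ran from 43.4 to 82.9. The X-inactivation transcript Xist read 2694 to 4777 in KO + GSH, 2444 to 4643 in KO and 132 to 188 in WT, while Y-linked Eif2s3y reached 24.4 at most in the KO groups and 701 to 936 in WT. Against the label of female mice, sex-linked genes and genotype therefore run together and cannot be told apart in any comparison with WT. Within each group, 2 arrays belong to a set numbered 2 in the titles and 1 to a set numbered 3. No source used here says what the set stands for. Of all tested probe sets, 38.9% differed between the sets (limma, adjusted p under 0.05), so the set was a term of every fit.

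Of the 10 genes, 6 have a start-site window in the RefSeq promoter table (GRCm38.p6), and 3 are printed because Cavin2 had the widest range of group means, Emcn was the one gene called higher in KO + GSH than in KO, and the Kdr window is the one of the 6 that holds a core antioxidant response element. Capitals mark the letters searched for, on both strands: TGACNNNGC, the core of the antioxidant response element, and AGGAAG, an ETS site. The windows are the 250 bases before the transcript start that the promoter table uses, at chr1:51288876-51289125 (plus strand) for Cavin2, chr3:137340828-137341077 (plus strand) for Emcn and chr5:75978456-75978705 (minus strand) for Kdr. That start differs from the end of the gene span for Kdr, whose window lies inside the span, and for Emcn, whose window overlaps the first bases of the span.
Cavin2: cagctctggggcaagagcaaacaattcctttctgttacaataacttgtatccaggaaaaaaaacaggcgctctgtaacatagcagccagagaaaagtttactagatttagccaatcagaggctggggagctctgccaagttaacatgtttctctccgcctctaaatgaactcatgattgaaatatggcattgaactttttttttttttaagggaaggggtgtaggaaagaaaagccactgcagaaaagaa
Emcn: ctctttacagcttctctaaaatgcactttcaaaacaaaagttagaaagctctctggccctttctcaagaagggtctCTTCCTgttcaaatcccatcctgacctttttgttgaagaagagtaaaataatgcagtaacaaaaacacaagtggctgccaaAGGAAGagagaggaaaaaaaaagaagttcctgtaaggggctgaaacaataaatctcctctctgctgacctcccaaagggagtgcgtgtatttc
Kdr: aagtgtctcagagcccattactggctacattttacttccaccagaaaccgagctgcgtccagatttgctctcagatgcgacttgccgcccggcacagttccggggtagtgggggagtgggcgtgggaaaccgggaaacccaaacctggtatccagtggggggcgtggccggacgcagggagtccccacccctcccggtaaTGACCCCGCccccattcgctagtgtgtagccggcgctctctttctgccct
The Cavin2 window holds neither set of letters. The Emcn window holds AGGAAG once on each strand, and the Kdr window holds TGACCCCGC. Of 32841 mouse windows of the same length, 10.16% hold TGACNNNGC and 29.49% hold AGGAAG. No window of Tek, Tie1 or Eng holds TGACNNNGC. AGGAAG has 1 match in the Tie1 window and 2 in the Eng window, and none in those of Tek and Kdr. A match is a run of letters and was not tested as a binding site.

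The endothelial genes that were tested were lower in KO + GSH than in WT almost throughout, and Cavin2 and Thbd carried the widest differences. Of the 14 probe sets, 12 passed the filter on low signal (a geometric mean of at least 116 over the 9 arrays), which left out Tie1 and Vwf. Vwf ran the other way, with all 3 KO + GSH arrays above all 3 WT arrays. In KO + GSH against KO, 1 of the 12 was higher and 5 were lower (limma, Benjamini-Hochberg adjusted p under 0.05), beside 35.4% of all 22519 tested probe sets called (18.4% higher, 17.0% lower). In KO + GSH against WT, 0 were higher and 11 were lower, beside 44.7% (22.5% higher, 22.3% lower), and the count higher at an unadjusted p under 0.05 was also 0. In KO against WT, 0 were higher and 5 were lower, beside 29.1% (14.6% higher, 14.6% lower). At an unadjusted p under 0.05, 3 were higher there, all of them Cavin2. Counted by gene, with at least 1 probe set called, 1 of 8 was higher and 3 were lower in KO + GSH against KO. Those 3 were Cavin2, Thbd and Eng, and all 3 Cavin2 probe sets are among the 5 lower ones. The second Eng probe set was not called in that comparison (log2 change 0.05). In KO + GSH against WT 8 of 8 genes were lower, and in KO against WT 4 of 8. No share of all genes was counted in the same way. Among the 8, Cdh5 was called at only 1 of its 2 probe sets, and Tek passed the filter through its KO and WT arrays. The calls of Pecam1 and Kdr were lost in 12 of 17 and 10 of 18 alternatives. The median log2 change of the 12 probe sets was -0.55 in KO + GSH against KO, -0.85 in KO + GSH against WT and -0.43 in KO against WT. Over all tested probe sets it was 0.04, 0.02 and 0.00. The groups did not overlap for 1 higher and 5 lower of the 12 in KO + GSH against KO (33.6% of all tested probe sets; 17.2% higher, 16.4% lower), for 9 lower in KO + GSH against WT (43.4%; 21.1% lower) and for 2 higher and 3 lower in KO against WT (30.2%; 15.8% higher, 14.4% lower). All 3 Cavin2 probe sets are also among the 5 lower without overlap in KO + GSH against KO. Probe sets of the same gene are thus counted separately in these shares. The 3 comparisons share arrays. The count of 5 in KO against WT was 3 without WT replicate 3, without WT replicate 4 or without KO replicate 3. The 11 in KO + GSH against WT became 6 with set 2 alone and 6 without the set term.

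**Figure D1:**
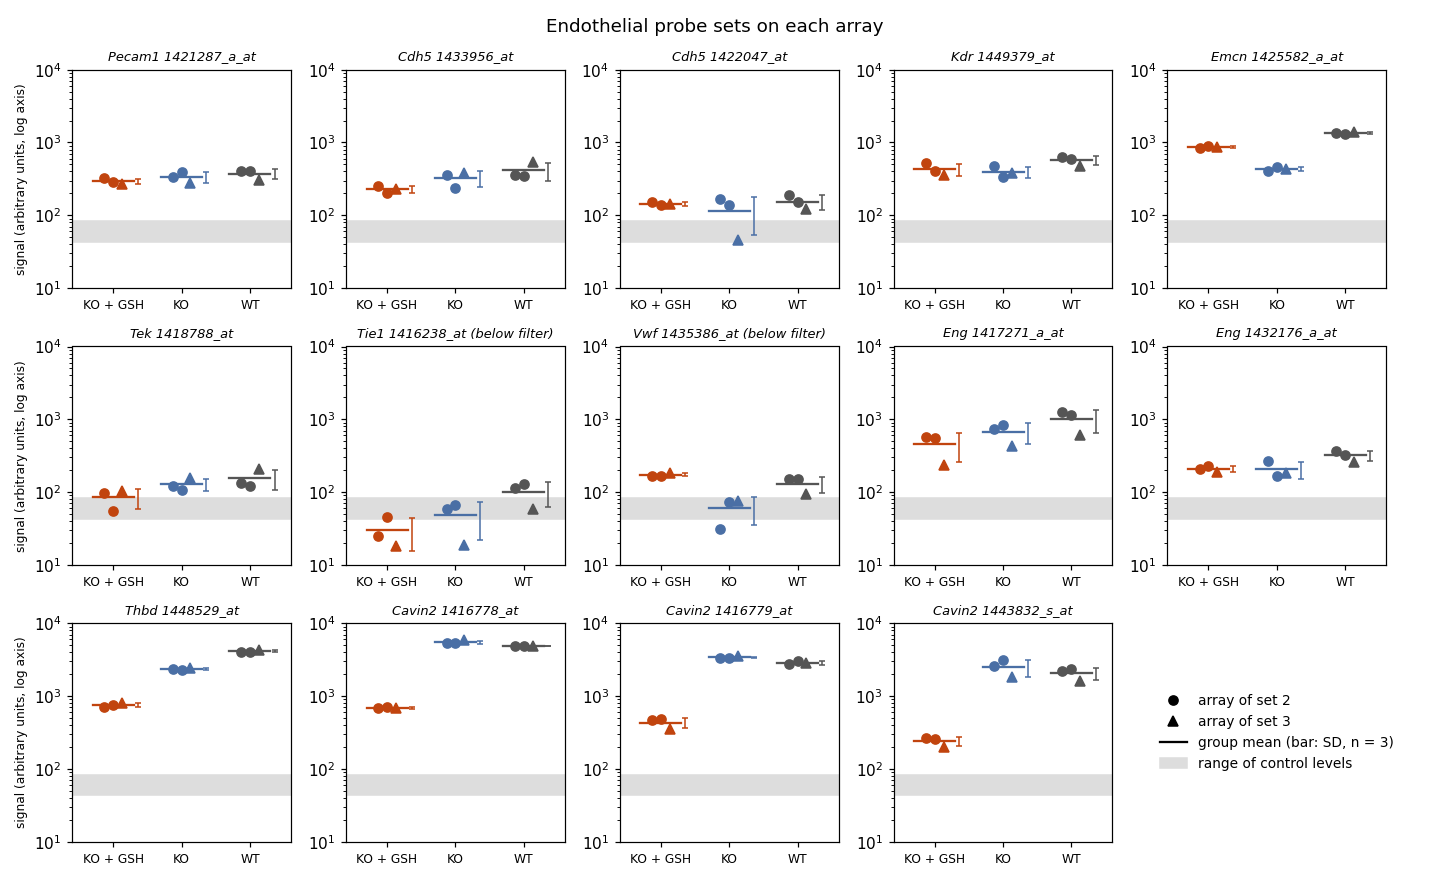
Signal of the 14 endothelial probe sets on each of the 9 arrays (log axis, arbitrary units), with circles for arrays of set 2, triangles for set 3, a line at the mean and a bar of 1 SD beside each group (n = 3). The grey band spans the control levels of the arrays, 43.4 to 82.9. Cavin2 and Thbd lie far lower in KO + GSH than in KO or WT, and Emcn is lowest in KO.

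The adhesion and surface genes come first. Pecam1 (platelet endothelial cell adhesion molecule, CD31; chr11:106654213-106715281) read 321, 284 and 271 in the KO + GSH cultures, 339, 388 and 279 in the KO cultures and 405, 411 and 302 in the WT cultures. All 3 groups overlap. It was lower in KO + GSH than in WT (log2 change -0.34, SE 0.13, limma adjusted p = 0.048), but the call was lost in 12 of 17 alternatives, among them leaving out WT replicate 3, 4 or 5 (adjusted p = 0.13, 0.15 and 0.063), KO + GSH replicate 2 or 3 (0.075 and 0.15), and KO replicate 2 or 4 (0.053 and 0.057). The log2 change was -0.19 in KO + GSH against KO (adjusted p = 0.28, limma) and -0.15 in KO against WT (adjusted p = 0.42, limma).

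Cdh5 encodes VE-cadherin, the adherens junction cadherin of endothelium (chr8:104101613-104144504). At 1433956_at it read 255, 201 and 228 in the KO + GSH cultures, 354, 236 and 387 in the KO cultures and 355, 342 and 548 in the WT cultures. All 3 KO + GSH arrays lie below all 3 WT arrays, and the KO arrays reach into WT. The difference of KO + GSH from WT was called (log2 change -0.83, SE 0.19, limma adjusted p = 0.0038; -0.62 within set 2 and -1.26 within set 3), and gave adjusted p = 0.063 with set 2 alone (limma). Against KO it was -0.49 (limma adjusted p = 0.066), and passed without KO replicate 3 (0.021) or without KO + GSH replicate 2 (0.027). KO against WT gave -0.35, with a 95% interval of -0.76 to 0.07. The second probe set, 1422047_at, disagreed: it read 153, 137 and 143 in the KO + GSH cultures, 165, 138 and 45.1 in the KO cultures and 189, 152 and 121 in the WT cultures, with no comparison called. Its KO value of 45.1 on the set 3 array sets it apart from the other KO arrays.

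Emcn encodes endomucin, a mucin of capillary and venous endothelium that hinders leukocyte adhesion (chr3:137341062-137431069). It read 847, 886 and 876 in the KO + GSH cultures, 405, 454 and 434 in the KO cultures and 1367, 1319 and 1402 in the WT cultures. The 3 groups do not overlap: KO is lowest, KO + GSH lies between, and WT is highest. KO + GSH was 2.02-fold higher than KO (log2 change 1.01, SE 0.08, limma adjusted p = 2.0e-06) and 1.57-fold lower than WT (log2 change -0.65, adjusted p = 5.5e-05, limma). KO was 3.16-fold lower than WT (log2 change -1.66, SE 0.08, limma adjusted p = 8.1e-08; -1.65 within set 2 and -1.69 within set 3). These 3 calls held in all 18 alternatives run. Emcn is the only one of the 12 tested probe sets called higher in KO + GSH than in KO. In these bulk samples fewer cells of a type and less RNA per cell cannot be told apart.

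The summed epithelial signal was also lowest in KO. The 6 epithelial markers (keratins, Epcam and Cdh1) summed to 65757 to 69246 in KO + GSH, 13468 to 14802 in KO and 47024 to 49391 in WT, and all 6 were higher in KO + GSH than in KO and lower in KO than in WT. All 6 were also higher in KO + GSH than in WT (median log2 change 0.45), where Emcn was lower. The 5 mesothelial markers summed to 7493 to 8299 in KO + GSH, 3946 to 4226 in KO and 12734 to 14126 in WT, with 1 higher and 4 lower in KO + GSH against KO and 5 of 5 lower in KO against WT. The higher one, Msln, makes up most of the KO + GSH sum (7052 in KO + GSH, 944 in KO and 5699 in WT on average), and the median log2 change of the 5 was -2.10 in KO + GSH against KO. The part of both lists in the result was not tested. Genes with the most similar log2 profile over the 9 arrays, out of 11612 searched, were Map1b, a microtubule-binding protein (root mean square difference 0.19 log2 units), Mcam (0.20) and Arhgef26, a guanine nucleotide exchange factor (0.20).

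Of 17 tested junction and surface genes outside the 10, 5 higher and 6 lower were called in KO + GSH against KO, 2 higher and 9 lower in KO + GSH against WT, and 2 higher and 5 lower in KO against WT. Their median log2 changes were -0.26, -0.51 and -0.32, beside 0.04, 0.02 and 0.00 over all tested probe sets. Of all tested probe sets, 35.4%, 44.7% and 29.1% were called in these comparisons. Mcam, the adhesion molecule CD146, averaged 2355 ± 302 in KO + GSH against 1061 ± 93.5 in KO, and 3013 ± 550.4 in WT, with log2 changes of 1.15 and -1.49 in KO + GSH against KO and KO against WT (limma adjusted p = 2.2e-07 and 6.3e-08). Selp, the leukocyte-binding P-selectin also stored in platelets, averaged 710.4 ± 99.2 in KO + GSH against 209 ± 57.9 in KO (log2 change 1.79) and was lower in KO than in WT (-1.80). Jup, the junction protein plakoglobin that epithelium also holds, was higher in KO + GSH than in KO (0.80) and lower in KO than in WT (-0.70). The tight junction adhesion molecule Jam3 averaged 159 ± 16.8 in KO + GSH against 469 ± 51.6 in KO (-1.56, limma adjusted p = 2.2e-06), and against WT its log2 change was -1.80. Against WT, KO + GSH was also lower for Jam2 (-1.11) and for Esam, an endothelial cell adhesion molecule (-0.89). Cd93, a surface C-type lectin of endothelium and myeloid cells, was higher than WT in KO + GSH (0.96) and in KO (0.87).

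Kdr, the VEGF receptor among the genes (VEGFR2, the main signalling receptor for VEGF-A; chr5:75932827-75979072), read 523, 407 and 355 in the KO + GSH cultures, 475, 337 and 378 in the KO cultures and 628, 596 and 476 in the WT cultures. KO + GSH overlaps both other groups, while the highest KO array lies just below the lowest WT array. KO was lower than WT (log2 change -0.52, SE 0.15, limma adjusted p = 0.023), a call lost in 6 of 18 alternatives. Those were no set term (0.12), set 2 alone (0.052) and leaving out WT replicate 3, 4 or 5 or KO replicate 3 (0.086, 0.069, 0.051 and 0.077). KO + GSH was lower than WT as well (-0.41, limma adjusted p = 0.044), a call lost in 10 of 18, including leaving out WT replicate 3, 4 or 5 (0.13, 0.10 and 0.075) or KO + GSH replicate 3 or 4 (0.14 and 0.14). KO + GSH against KO gave 0.11 (95% interval -0.22 to 0.44).

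Among the 9 tested VEGF ligands and other receptors, 3 higher and 4 lower were called in KO + GSH against KO, 3 higher and 4 lower in KO + GSH against WT and 1 higher and 3 lower in KO against WT. The median log2 changes of the list were -0.22, -0.17 and -0.0029. Calls stand beside 35.4%, 44.7% and 29.1% of all tested probe sets. The 4 lower in KO + GSH, against KO and against WT alike, were ligands, and the 3 higher were receptors. Vegfa averaged 1104 ± 43.1 in KO + GSH against 2050.2 ± 341 in KO (log2 change -0.88, limma adjusted p = 5.2e-06). The lymphatic growth factors followed: Vegfc averaged 622 ± 59.5 in KO + GSH against 1668 ± 216 in KO (-1.42), and Vegfd averaged 65.3 ± 25.3 in KO + GSH against 447 ± 47.3 in KO (-2.84). Vegfd was above the control level on 2 of 3 KO + GSH arrays, so its change is set against a signal near background. Placental growth factor, Pgf, averaged 227 ± 86.0 in KO against 473 ± 41.6 in WT (-1.12, limma adjusted p = 0.0026) and was lower in KO + GSH than in WT (-2.78), with 2 of 3 KO + GSH arrays above the control level. Flt4, the receptor of VEGF-C and VEGF-D, was higher in KO + GSH than in KO (0.78). The co-receptors split in KO against WT, with Nrp1 at -0.39 and Nrp2 at 0.19, both called.

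Tek, a receptor for the angiopoietins (Tie2; chr4:94739086-94874976), lay at the edge of the filter, with a geometric mean of 116. It read 97.0, 55.8 and 103 in the KO + GSH cultures, 123, 106 and 154 in the KO cultures and 134, 121 and 209 in the WT cultures, and 2 of 3 KO + GSH arrays were above the control level. The KO + GSH arrays lie below all KO and WT arrays. The difference from WT was called (log2 change -0.87, SE 0.24, limma adjusted p = 0.013) and lost in 4 of 16 alternatives, 1 of them leaving out WT replicate 5 (0.068). Tek averaged 85.2 in KO + GSH, below the cut of 116, against 128 in KO and 155 in WT. It passed the filter through its KO and WT arrays, which favours a call of lower in KO + GSH. The difference from KO was -0.62 (limma adjusted p = 0.071), and passed without KO + GSH replicate 2 (0.018). Tie1 (the partner receptor of Tek; chr4:118471191-118489849) read 25.3, 45.6 and 18.5 in the KO + GSH cultures, 58.0, 67.6 and 18.9 in the KO cultures and 115, 129 and 58.0 in the WT cultures. It was above the control level on 0 of 3 KO + GSH arrays, 1 of 3 KO arrays and 3 of 3 WT arrays. Not above that level on any KO + GSH array, it was at least 1.58-fold lower there than in WT, set against each array's control level. That bound was not tested. The fit without the filter used the values as read, background ones included (log2 change -1.78, limma adjusted p = 0.0089).

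Of the 5 tested partners of these receptors, 2 higher and 1 lower were called in KO + GSH against KO, 1 higher and 3 lower in KO + GSH against WT and 2 higher and 2 lower in KO against WT. Their medians on the log2 scale were -0.16, -0.96 and -0.41, and the shares called of all tested probe sets were 35.4%, 44.7% and 29.1%. Angpt2, a ligand that can block Tek, averaged 448 ± 40.0 in KO against 778 ± 71.4 in WT (log2 change -0.80, limma adjusted p = 4.0e-04) and was lower in KO + GSH than in WT by a log2 change of -0.96. Svep1, a large matrix protein, averaged 128 ± 38.2 in KO + GSH against 1354 ± 62.6 in KO (-3.44), and was higher in KO than in WT (1.44). Dok2, an adaptor of tyrosine kinase receptors found mostly in blood cells, was higher in KO + GSH than in KO (0.52) and in KO than in WT (1.06). Foxo1, a transcription factor restrained by Tek signalling, was higher in KO + GSH than in KO (0.55) and lower in KO than in WT (-0.41).

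Eng encodes endoglin, the co-receptor through which BMP9 and TGF-beta reach ALK1 (chr2:32646595-32682669). At 1417271_a_at it read 578, 548 and 232 in the KO + GSH cultures, 747, 846 and 429 in the KO cultures and 1249, 1130.0 and 611 in the WT cultures. Within each set the order was KO + GSH below KO below WT, while the set 3 array was the lowest of its group in all 3 groups. The set difference itself was -1.04 on the log2 scale (set 3 minus set 2, limma adjusted p = 2.3e-05). With the set in the fit, KO + GSH was 1.54-fold lower than KO (log2 change -0.63, SE 0.11, limma adjusted p = 8.5e-04; -0.50 within set 2 and -0.88 within set 3). It was 2.27-fold lower than WT (-1.18, limma adjusted p = 4.4e-06), and KO was 1.47-fold lower than WT (-0.56, limma adjusted p = 0.0027). Without the set term the adjusted p-values were 0.35, 0.055 and 0.45. With the replicate number as a block, KO + GSH against KO gave adjusted p = 0.051.

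The second Eng probe set, 1432176_a_at, read 207, 229.8 and 188 in the KO + GSH cultures, 264, 165 and 185 in the KO cultures and 365, 328 and 263 in the WT cultures. It was lower than WT in KO + GSH (log2 change -0.61, limma adjusted p = 0.019) and in KO (-0.65, limma adjusted p = 0.020). It disagreed with the first on KO + GSH against KO (0.05, 95% interval -0.36 to 0.45). Each of its 2 calls was lost in 5 of 17 alternatives. Leaving out WT replicate 3 or 4 did so in both (0.081 and 0.051 for KO + GSH, 0.088 and 0.059 for KO), as did KO + GSH replicate 2 for the first (0.060) and KO replicate 3 for the second (0.063). Macrophages can hold Eng and Pecam1, and their 16 markers summed to 110976 to 129589 in KO + GSH, 85244 to 106245 in KO and 52758 to 55208 in WT, with 9 higher and 2 lower in KO + GSH against KO, 15 higher and 0 lower in KO + GSH against WT (also 0 lower at an unadjusted p under 0.05, limma) and 14 higher and 2 lower in KO against WT. Their part in the results for Eng and Pecam1 was not tested.

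Of the 13 tested genes of the endoglin and ALK1 pathway, 3 higher and 5 lower were called in KO + GSH against KO, 1 higher and 6 lower in KO + GSH against WT and 3 higher and 3 lower in KO against WT. On the log2 scale the medians of the 13 were -0.09, -0.09 and -0.01. Shares called over all tested probe sets were 35.4%, 44.7% and 29.1%. Id3, a target of BMP signals that blocks helix-loop-helix factors, averaged 2349.8 ± 136 in KO + GSH against 4745 ± 121 in KO (log2 change -1.02, limma adjusted p = 2.9e-07). The TGF-beta type I receptor Tgfbr1 averaged 5980.1 ± 344 in KO + GSH against 3452 ± 207 in KO (0.79). The inhibitory SMADs were lower in KO than in WT, Smad6 by a log2 change of -0.63 and Smad7 of -0.53, and Smad7 was higher in KO + GSH than in KO (0.51). Bmpr2, the type II BMP receptor, was lower in KO + GSH than in WT (-0.34).

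**Figure D2:**
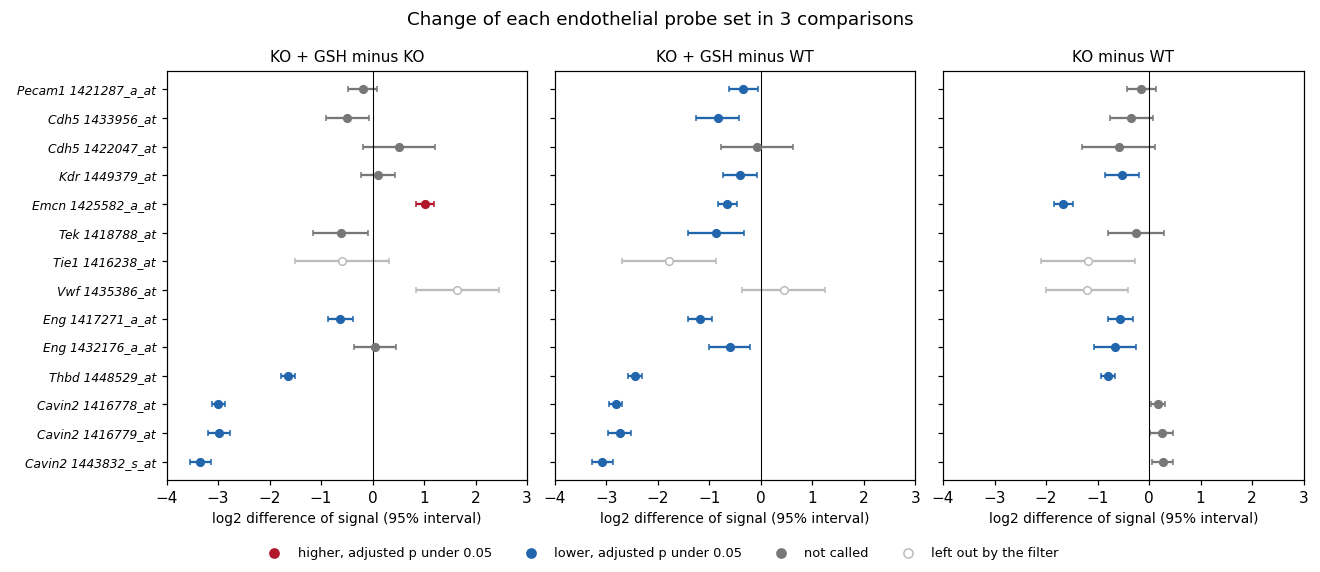
Log2 difference of signal for each endothelial probe set, with its 95% interval from limma, in KO + GSH against KO, KO + GSH against WT and KO against WT (3 arrays a group). Red marks a call higher, blue a call lower at an adjusted p under 0.05, grey no call, and open circles the 2 probe sets left out by the filter. The 3 Cavin2 probe sets lie between -3.34 and -2.74 in both comparisons of KO + GSH, and at 0.17 to 0.27 in KO against WT.

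Among the genes that control clotting, thrombomodulin, encoded by Thbd, binds thrombin and turns it towards activating protein C, an anticoagulant (chr2:148404471-148408188). Thbd read 708, 759 and 798 in the KO + GSH cultures, 2349.6, 2298 and 2439 in the KO cultures and 4024, 4067 and 4277 in the WT cultures. The groups do not overlap and step up from KO + GSH through KO to WT, with little spread inside each. KO + GSH averaged 755 ± 44.8, KO 2362 ± 71.4 and WT 4123 ± 135 (SD, n = 3 each). KO + GSH was 3.13-fold lower than KO (log2 change -1.65, SE 0.06, limma adjusted p = 3.8e-09) and 5.47-fold lower than WT (-2.45, adjusted p = 4.8e-10, limma). KO was 1.75-fold lower than WT (-0.80, SE 0.06, limma adjusted p = 2.4e-06; -0.80 within set 2 and -0.81 within set 3). These 3 calls held in all 18 alternatives.

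The fibroblast and mesothelial signals stand beside Thbd. The 10 fibroblast and mesenchymal markers summed to 16056 to 19487 in KO + GSH, 72125 to 97296 in KO and 56214 to 58779 in WT, with 10 of 10 lower in KO + GSH against KO and against WT, and 7 higher and 1 lower in KO against WT. The mesothelial sums are given with Emcn, and 4 of those 5 markers were lower in KO + GSH against KO and against WT. Their part in the result was not tested. The 3 closest profiles to Thbd were those of Agtr1a, the angiotensin II receptor (root mean square difference 0.11), Thy1, a surface glycoprotein on the fibroblast list (0.15), and Gxylt2, a xylosyltransferase (0.17). Thy1 is the 1 gene of the fibroblast list that was lower in KO than in WT (1281 against 1941 on average).

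Vwf encodes von Willebrand factor, the glycoprotein of endothelial storage granules and platelets that tethers platelets (chr6:125552948-125686679). It read 169, 169 and 185 in the KO + GSH cultures, 31.1, 73.4 and 75.1 in the KO cultures and 149.5, 150.4 and 93.6 in the WT cultures. All 3 KO + GSH arrays and all 3 WT arrays lie above all 3 KO arrays, and above the control level, as do 2 of 3 KO arrays. Vwf was left out by the filter. In the fit without the filter, KO + GSH against KO gave a log2 change of 1.65 (limma adjusted p = 0.0085) and KO against WT -1.21 (limma adjusted p = 0.053). KO + GSH against WT gave 0.44 (limma adjusted p = 0.45), with all 3 KO + GSH arrays above all 3 WT arrays. The 6 platelet and megakaryocyte markers on the array summed to 18353 to 18734 in KO + GSH, 12855 to 14521 in KO and 9758 to 10416 in WT. Pf4 makes up most of these sums (15098 in KO + GSH, 11125 in KO and 7660 in WT on average). Itga2b averaged 296, 334 and 374 in the same order. Of 5 tested, 3 were called higher and 0 lower in KO + GSH against KO (0 lower also at an unadjusted p under 0.05, limma). The part of these markers in the result was not tested.

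Of 6 tested partners in haemostasis, 3 higher and 3 lower were called in KO + GSH against KO, 2 higher and 4 lower in KO + GSH against WT, and 4 lower in KO against WT, where 0 were higher (0 also at an unadjusted p under 0.05, limma). Median log2 changes of the 6 were -0.25, -0.58 and -0.86, and 35.4%, 44.7% and 29.1% of all tested probe sets were called. Procr, the receptor that presents protein C to the thrombin and thrombomodulin complex, averaged 2352 ± 82.4 in KO against 4312 ± 116 in WT (log2 change -0.87, limma adjusted p = 3.7e-06). Tissue factor, F3, which starts coagulation, averaged 10931 ± 170.4 in KO + GSH against 3959 ± 356 in KO (1.47) and was lower in KO than in WT (-1.17). Edn1, the vasoconstrictor endothelin-1, averaged 3521 ± 526 in KO + GSH against 869 ± 242 in KO (2.05) and was lower in KO than in WT (-1.09). Tfpi, the inhibitor of the tissue factor pathway, was lower in KO + GSH than in KO (-0.85) and than in WT (-0.73). The plasminogen activator Plat averaged 474 ± 70.6 in KO + GSH against 1763 ± 209.6 in WT (-1.90, limma adjusted p = 8.6e-06) and was lower in KO than in WT as well (-0.84).

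Cavin2 encodes a coat protein of caveolae, the flask-shaped membrane pits common in capillary endothelium (chr1:51289126-51302960). At 1416778_at it read 684, 712 and 679 in the KO + GSH cultures, 5289.6, 5443 and 5813 in the KO cultures and 4840.5, 4922 and 4907 in the WT cultures. The KO + GSH arrays lie far below all others, and the KO arrays lie just above WT. KO + GSH averaged 692 ± 17.6, KO 5515 ± 269 and WT 4890.0 ± 43.5 (SD, n = 3 each). KO + GSH was 7.97-fold lower than KO (log2 change -2.99, SE 0.06, limma adjusted p = 1.4e-10; -2.94 within set 2 and -3.10 within set 3) and 7.07-fold lower than WT (-2.82, adjusted p = 2.7e-10, limma). At 1416779_at the signal was 465, 487 and 351 in the KO + GSH cultures, 3348, 3329.9 and 3519 in the KO cultures and 2749.9, 3037 and 2815 in the WT cultures, with log2 changes of -2.98 and -2.74. At 1443832_s_at it was 268, 258 and 202 in the KO + GSH cultures, 2577, 3118 and 1821 in the KO cultures and 2212, 2355 and 1618 in the WT cultures, with -3.34 and -3.08, and its set 3 array was the lowest of each group. All 6 of these changes were called, and held in all 18 alternatives.

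In KO against WT, Cavin2 was not called: the log2 change was 0.17, 0.25 and 0.27 at the 3 probe sets (limma adjusted p = 0.054, 0.092 and 0.051), with 95% intervals of 0.04 to 0.31, 0.02 to 0.47 and 0.06 to 0.47. They passed, as higher, in 2, 3 and 5 of 18 alternatives. Among these were leaving out KO replicate 2 or 4 for 1443832_s_at (0.0496 and 0.048) and KO + GSH replicate 4 for 1416779_at and 1443832_s_at (0.022 and 0.044). The fibroblast sums given with Thbd were also lowest in KO + GSH and highest in KO, and their part in the result was not tested. The 3 closest profiles to Cavin2 were those of the microfibril protein Mfap5 (root mean square difference 0.11), the procollagen enhancer Pcolce (0.13) and the hyaluronan-binding Cemip (0.13). Mfap5 averaged 434 in KO + GSH, 3228 in KO and 2936 in WT.

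Of 5 other tested caveola genes, 1 higher and 2 lower were called in KO + GSH against KO, 1 higher and 3 lower in KO + GSH against WT, and 2 lower in KO against WT, where 0 were higher (1 at an unadjusted p under 0.05, limma). These 5 had median log2 changes of -0.05, -0.36 and -0.24, and 35.4%, 44.7% and 29.1% of all tested probe sets were called. Cavin1, the cavin needed for caveolae to form, averaged 1293 ± 189.7 in KO + GSH against 2084 ± 371 in KO (log2 change -0.68, limma adjusted p = 4.2e-04). Ehd2, an ATPase at the caveola neck, was lower in KO + GSH than in KO (-0.62). Cav2 was higher, at 5144 ± 95.6 in KO + GSH against 3396 ± 572 in KO (0.61). Cav1, the caveolin that shapes the pit, was lower than WT in KO + GSH (-0.36) and in KO (-0.31). The widest of these changes in KO + GSH against KO was -0.68, beside -2.99 for Cavin2.

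**Figure D3:**
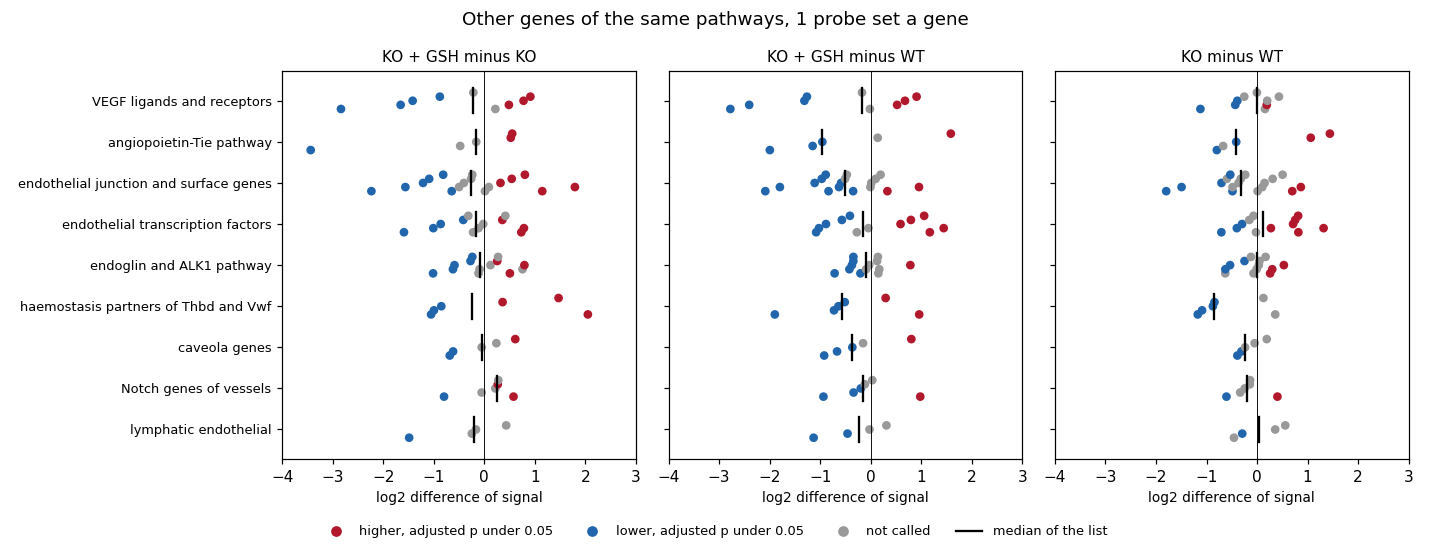
Log2 difference of signal for the tested genes of the 9 related lists (1 probe set a gene) in the same 3 comparisons, with red and blue for genes called higher and lower, grey for no call and a black line at each list's median. Each list holds genes on both sides of 0 in KO + GSH against KO.

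Of 12 tested endothelial transcription factors, 3 higher and 4 lower were called in KO + GSH against KO, 5 higher and 5 lower in KO + GSH against WT and 6 higher and 3 lower in KO against WT. The 12 had medians of -0.17, -0.16 and 0.13 on the log2 scale. Among all tested probe sets 35.4%, 44.7% and 29.1% were called. Klf2, induced by blood flow and known to raise Thbd in endothelium, averaged 271 ± 16.9 in KO + GSH against 816 ± 31.5 in KO (log2 change -1.59, limma adjusted p = 5.6e-07) and was higher in KO than in WT (1.32). Klf4, of the same family, was lower in KO + GSH than in KO (-0.86) and than in WT (-0.89). The ETS factor Fli1, which blood cells also use, averaged 1635 ± 185 in KO + GSH against 599.7 ± 53.6 in WT (1.44, limma adjusted p = 5.3e-08). The homeobox factor Hhex was higher in KO + GSH than in KO (0.78), and the MADS-box factor Mef2c was higher in KO than in WT (0.81).

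Of 6 tested Notch and ephrin genes of vessels, 2 higher and 1 lower were called in KO + GSH against KO, 1 higher and 3 lower in KO + GSH against WT and 1 higher and 1 lower in KO against WT. As a list they had median log2 changes of 0.24, -0.16 and -0.19. For these and the lymphatic genes, the shares called of all tested probe sets were 35.4%, 44.7% and 29.1%. Ephb4, the ephrin receptor of veins, averaged 226 ± 38.5 in KO + GSH against 398 ± 99.1 in KO (log2 change -0.80, limma adjusted p = 0.0069), and Notch1 was higher in KO + GSH than in KO (0.58) and in KO than in WT (0.40). Jag1, a Notch ligand, was lower in KO than in WT (-0.61). Among 4 tested lymphatic genes Mmrn1, a multimerin of lymphatic vessels and platelets, averaged 116 ± 16.1 in KO + GSH against 325 ± 28.2 in KO (-1.49, limma adjusted p = 4.1e-05), the one call of that list there. Pdpn, which type I alveolar cells share with lymphatic vessels, was lower in KO than in WT (-0.29).

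All 10 endothelial genes together, 1 probe set each, summed to 3746 to 4208 in KO + GSH, 10171 to 10406 in KO and 12884 to 13266 in WT, with no overlap between the groups. Cavin2 and Thbd supply most of that sum on the KO and WT arrays, and its place below KO in KO + GSH rests on them. Among the other genes, Pecam1, Cdh5, Tek, Tie1 and Eng also averaged lowest in KO + GSH at the summed probe set. Kdr, Emcn and Vwf averaged lowest in KO. Of the 14 probe sets, 11 were above the control level on all 9 arrays, and 10 were above the highest control value on each. The 8 smooth muscle and pericyte markers summed to 27890.5 to 32833 in KO + GSH, 33681 to 46570.4 in KO and 35193 to 39169.6 in WT. The 9 type II markers on the array summed to 4369 to 4968 in KO + GSH, 3228 to 3544 in KO and 2967 to 3571 in WT, and the 7 type I markers to 11466 to 12330.1 in KO + GSH, 10081 to 13056 in KO and 13623 to 16163 in WT. The 5 lymphocyte markers on the array summed to 339 to 396 in KO + GSH, 261 to 382 in KO and 257 to 408 in WT, with 1 of 5 above the control level on all arrays of each group.

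**Figure D4:**
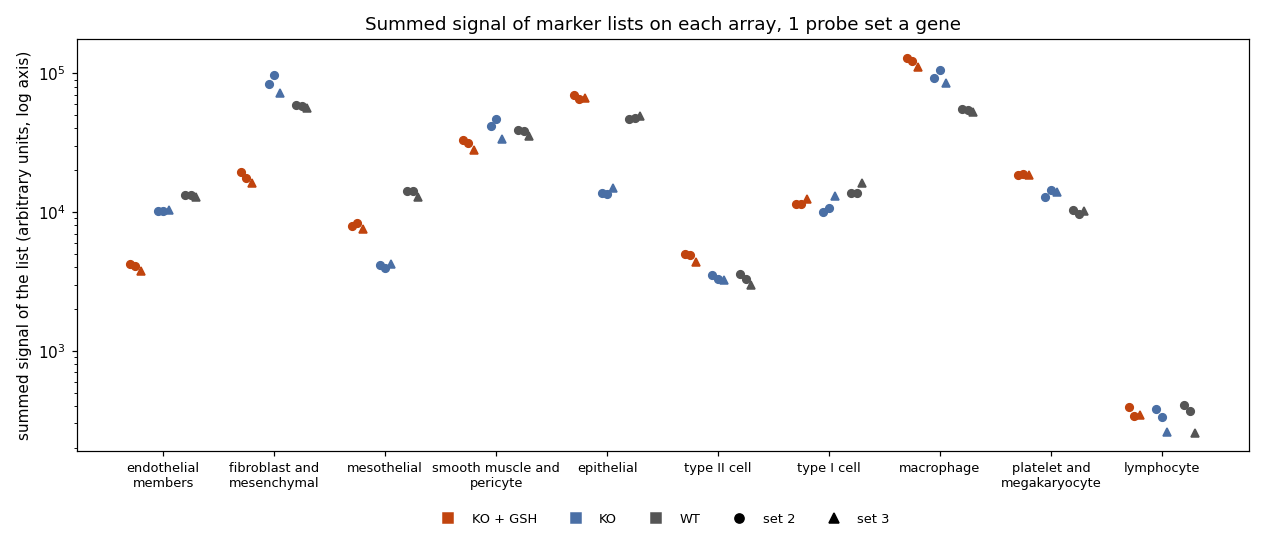
Summed signal of each marker list on every array (log axis, arbitrary units, 1 probe set a gene), with colours for the groups, circles for set 2 and triangles for set 3. The endothelial sum is lowest in KO + GSH (3746 to 4208), as is the fibroblast sum, while the epithelial sum is lowest in KO. The place of the endothelial sum below KO rests on Cavin2 and Thbd, while Kdr, Emcn and Vwf average lowest in KO. The mesothelial sum is lowest in KO through Msln, while the other 4 mesothelial genes are lower in KO + GSH than in KO.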

How the data were processed

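RNA of each culture was hybridised to the Affymetrix Mouse 430 2.0 array named in the series design text. The deposited values, used as the authors gave them, are linear intensities, 1 per probe set and array. No source used here names the software that summarised the probes. Every array has a 2% trimmed mean of 500. Of 45101 probe sets, 64 controls were left out. In the platform annotation, which can be old, 34945 probe sets have 1 gene symbol, 932 several and 9160 none.

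Values were tested on the log2 scale (2 values at 0 were set to 0.1) with limma 3.58.1 in R 4.3.3, with terms for group and set over all 9 arrays, a 95% confidence level for intervals, 5 residual and 6.08 prior degrees of freedom and an intensity trend. The 22519 probe sets at or above the median of mean log2 values were kept (geometric mean of 116 or more), and p-values were adjusted by Benjamini-Hochberg over all of them with a threshold of 0.05. The method was checked on simulated data. The precision is limited by 3 arrays a group.

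Replicate numbers of the titles are shared by KO + GSH and KO, whose same-numbered arrays deviated together (correlations of deviations 0.32, 0.29 and 0.67). The main fit held the set and no replicate number. Same-numbered arrays were blocked only in the alternative with the replicate block. Differently numbered arrays of set 2 gave 0.39 and 0.24, so within set 2 a shared number did not go with a clearly higher correlation. Between KO and WT the 2 shared numbers, 3 and 4, gave 0.42 and -0.49. Number 3 lies in set 2 in both groups, while number 4 lies in set 3 in KO and in set 2 in WT. In both comparisons with WT the replicate block thus joined arrays of different sets. No 2 arrays held identical values. Alternatives changed the pseudocount, filter, normalisation, set term, replicate block, error model, arrays in the fit, decision rule and control level, and left out each array.

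The 10 genes and the related lists were chosen with earlier results of these data known. Every probe set of the 10 genes is named. From each list, at most 4 called genes a comparison with the smallest p are named, by the kept probe set with the highest mean. Counts called in the marker lists stand beside the same shares of all tested probe sets. These are 35.4% in KO + GSH against KO, 44.7% in KO + GSH against WT and 29.1% in KO against WT. For Cavin2, Thbd and Emcn, which have the widest ranges of group means among the 8 genes that passed the filter, the 3 genes of most similar profile are named. Gene positions and promoter windows are RefSeq's, on GRCm38.p6.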

Additional observations from a re-analysis of the deposited data

How the results depend on the processing

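The calls of Emcn and Thbd in all 3 comparisons, and of Cavin2 in both comparisons of KO + GSH, held in the 18 alternatives run. Of 636 log2 changes of endothelial probe sets under an alternative, 568 kept direction and side of the threshold, 47 lost their call, 14 gained one and 7 reversed. Counts of called endothelial probe sets moved by over 1.5 times as follows. KO + GSH against WT (11) gave 7 of 7 tested with the filter at the 70th percentile, 6 without the set term, 6 with set 2 alone and 5 under the rule in the series design text. KO against WT (5) gave 2 without the set term, 3 with set 2 alone and 2 under that rule. With the replicate block in place of the set, the endothelial count was 5 for KO + GSH against KO (6) and 9 for KO + GSH against WT. That block joins arrays of different sets in both comparisons with WT. Over all probe sets, KO + GSH against KO (7964) gave 4574 without the set term and 3004 under the rule. KO + GSH against WT (10074) gave 6181, 4076 and, with the replicate block, 6586. KO against WT (6560) gave 2774, 1982 and, with the replicate block, 3253. Leaving out 1 array gave 3 to 7 endothelial calls in KO against WT, 6 to 8 in KO + GSH against KO and 8 to 11 in KO + GSH against WT, and 4500 to 6825, 6659 to 7847 and 8184 to 10452 calls over all probe sets. Only uncalled changes reversed. In KO + GSH against KO, Cdh5 at 1422047_at turned to -0.058 with set 2 alone, and leaving out 1 array gave -0.062 to 0.21 for Kdr and -0.15 to 0.22 for Eng at 1432176_a_at. In KO + GSH against WT, leaving out 1 array gave -0.44 to 0.11 for Cdh5 at 1422047_at. Apart from fewer arrays or fewer probe sets tested, the cause of these changes was not tested. Tie1, and Vwf in KO, lie near the control level, which limits both.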

Other observations

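Of 28 tested genes of the related lists that the naming rule did not reach, 4 were higher and 9 lower in KO + GSH against KO (limma). Over all tested probe sets, 18.4% were higher and 17.0% lower. The 6 given with averages below were chosen after their values were seen, so they are a description and do not stand for the 28. The other higher ones were Ctnnd1 (log2 change 0.54), Epas1 (0.36) and Ctnnb1 (0.32). The other lower ones were Adgrl4 (-0.65), Acvrl1 (-0.62), Gata2 (-0.42) and Smad1 (-0.24). Flt1, the VEGF receptor VEGFR1, averaged 287 ± 29.1 in KO + GSH against 154 ± 30.1 in KO (SD, n = 3 each; log2 change 0.91, limma adjusted p = 0.0029). Cd34, a sialomucin of capillary endothelium and of some fibroblasts, averaged 55.1 ± 37.0 in KO + GSH against 205 ± 25.8 in KO (-2.24, limma adjusted p = 0.0030), with 2 of 3 KO + GSH arrays above the control level, so the change is set against a signal near background. Cldn5, the tight junction claudin of endothelium, averaged 205 ± 77.8 in KO + GSH against 416 ± 25.04 in KO (-1.09, limma adjusted p = 0.0017). The endothelial nitric oxide synthase gene Nos3 averaged 95.9 ± 18.6 in KO + GSH against 190.4 ± 30.7 in KO (-0.998, limma adjusted p = 0.0043), and 2 of 3 KO + GSH arrays were above the control level. Robo4, a guidance receptor of endothelium, averaged 108 ± 7.81 in KO + GSH against 191 ± 21.6 in KO (-0.82, limma adjusted p = 0.0082). The endothelial transcription factor Sox18 averaged 175 ± 100.1 in KO + GSH against 309 ± 75.9 in KO (-1.01, limma adjusted p = 0.011). In KO against WT these 6 were not called (limma adjusted p = 0.99, 0.85, 0.095, 0.26, 0.29 and 0.88). Of the 28, 3 others were called higher and 4 lower there.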
